A study of Arabidopsis thaliana with 17 samples.

Results

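A set of 87 Arabidopsis thaliana genes was listed at low or no expression in root cells at day 0 and at clear levels in bioprinted constructs 3 days later. Members were chosen by an FPKM (fragments per length of transcript and number of mapped fragments) below 1 in each of 4 day 0 groups and of at least 10 in differentiated constructs at day 3. Of 33201 entries in the deposited group table, 32654 were single nuclear gene IDs, 14706 of these met the day 0 limit, and 87 also met the day 3 limit. Day 0 and day 3 levels therefore chose the members and are given as a description, with no test; the day 1 level was not used. Genes meeting the day 0 limit are called silent below, which means only that they were listed under 1: an exact 0 in this table can be a failed estimate, as the abundant dehydrin genes ERD10 and LTI30, at 3143 and 4138 in differentiated cells, were listed at 0 in meristematic cells.

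In the study, root cells were mixed into a printable material and deposited as constructs, with isolated cells as the control. The genotype in every group was pSCR:SCR-mCherry, which joins the endodermal transcription factor SCARECROW to a red fluorescent protein under the SCR promoter. At day 0 there were 3 libraries each of isolated differentiated cells, isolated meristematic cells, meristematic constructs and differentiated constructs. Differentiated constructs also had 3 libraries at day 1 and 2 at day 3; the series speaks of independent experiments, but the labels do not tie libraries to plants.

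The level of a gene below is the authors' pooled FPKM for a group. It carries no error, since the table of single libraries does not keep the same gene on the same line, and FPKM does not give the read depth. The pooled values added up to 1234075 for meristematic cells, the highest sum, and 741440 for day 3, the lowest. No meristematic construct was measured after day 0, and no isolated cell was followed in time, so time and the printed state cannot be told apart. In bulk RNA, fewer cells of a type and less RNA per cell cannot be told apart either. Endodermis markers were detected in every group, with summed FPKM of 1084 in differentiated cells, 1063 in meristematic cells, 753.6 in meristematic constructs and 851.9, 503.1 and 133.3 in differentiated constructs at days 0, 1 and 3. These sums include SCR, whose reads may come partly from the pSCR:SCR-mCherry transgene. Summed epidermis, root cap and phloem markers were at 72.9, 33.3 and 29 in differentiated constructs at day 0 and at 28, 6.28 and 0.677 at day 3, and none of the markers is a member.

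Of the members, 6 stand on a list of suberin genes. Suberin is a polyester of long-chain fatty acids, glycerol and ferulate that root endodermis and wounded tissue lay down as a seal; cytochrome P450 enzymes oxidize the acyl chains, acyltransferases join them to glycerol and ABC transporters export the products. EARLI1 and AZI1 are small proline-rich proteins of the lipid-transfer type at the cell surface, AZI1 being known for systemic immunity. Other members act in oxidation of phenolics, efflux of toxic compounds, signalling and RNA handling.

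Promoter sequences of the adjacent EARLI1-type members AZI1 and EARLI1 and of 3 suberin enzymes are shown because these are the groups in which several members lie together or serve 1 pathway. Each is the 250 bases before the annotated gene start in RefSeq TAIR10.1, matched by gene ID and written 5′ to 3′ on the gene's strand. Capitals mark ACCAAC (an element bound by MYB factors), TATAAA (the TATA box) and TTGACC (a W-box), on either strand. On the opposite strand ACCAAC reads GTTGGT, the TATA box reads TTTATA and the W-box reads GGTCAA. The windows are chr4:7401952-7402201 for AZI1 and chr4:7406995-7407244 for EARLI1, both on the minus strand. Those of CYP86A1 at chr5:23768112-23768361 and CYP86B1 at chr5:7805969-7806218 are on the minus strand, and that of GPAT5 at chr3:3595444-3595693 is on the plus strand.
AZI1: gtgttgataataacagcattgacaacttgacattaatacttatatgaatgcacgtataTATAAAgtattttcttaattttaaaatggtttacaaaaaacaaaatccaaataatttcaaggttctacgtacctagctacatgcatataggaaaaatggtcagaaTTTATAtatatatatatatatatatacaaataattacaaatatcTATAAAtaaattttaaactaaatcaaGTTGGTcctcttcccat
EARLI1: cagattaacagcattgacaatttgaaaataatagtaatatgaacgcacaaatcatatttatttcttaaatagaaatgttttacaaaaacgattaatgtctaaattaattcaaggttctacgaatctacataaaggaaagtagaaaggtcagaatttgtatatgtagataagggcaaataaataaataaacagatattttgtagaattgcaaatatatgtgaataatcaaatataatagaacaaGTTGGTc
CYP86A1: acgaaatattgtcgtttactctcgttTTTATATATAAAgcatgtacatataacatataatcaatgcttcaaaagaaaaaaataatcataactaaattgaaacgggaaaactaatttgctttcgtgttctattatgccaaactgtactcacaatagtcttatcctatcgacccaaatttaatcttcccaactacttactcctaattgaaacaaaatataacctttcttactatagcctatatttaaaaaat
CYP86B1: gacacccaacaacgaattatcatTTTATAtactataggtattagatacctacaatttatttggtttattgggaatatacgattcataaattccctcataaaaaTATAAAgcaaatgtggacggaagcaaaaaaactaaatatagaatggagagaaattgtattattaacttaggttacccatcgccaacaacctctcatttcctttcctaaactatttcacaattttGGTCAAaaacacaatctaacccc
GPAT5: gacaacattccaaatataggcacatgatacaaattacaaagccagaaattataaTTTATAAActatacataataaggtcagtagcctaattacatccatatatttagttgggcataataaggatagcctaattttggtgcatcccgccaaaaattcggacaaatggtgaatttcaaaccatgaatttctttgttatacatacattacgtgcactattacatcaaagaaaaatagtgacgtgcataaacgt

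By day 1, 73 of the 87 members (83.9%) had reached an FPKM of at least 1, and 32 (36.8%) had reached 10. Of all 14706 genes silent at day 0, 685 (4.66%) were at an FPKM of at least 1 and 42 (0.286%) at 10 or more at day 1. Of those 42 genes, 32 (76.2%) were still at 10 or more at day 3 and are members. At day 1, 9 members were listed at 0 and 5 lay above 0 but below 1. The latter were PRP4, AT3G29970, ESR1, SK14 and AT2G18370.

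The median member stood at 34.4% of its day 3 level at day 1. Day 1 exceeded day 3 in 8 members, lay between 50% and 100% of it in 20, between 10% and 50% in 43 and below 10% in 16. The median log2 ratio of day 1 to day 3, with a pseudocount of 1 on FPKM, was -1.40, with an SD of 1.87 over members. Among role groups of coding genes, median day 1 shares were lowest in 5 wall and separation genes (25.9%), 10 of the defence type (26.2%) and 10 of suberin and lipid barrier (27.4%). They were highest in 7 conjugation and efflux genes (42%) and 7 phenolic and oxidative enzymes (52.2%). The 3 pseudogenes had a median of 160%, and the 6 non-coding RNA genes a median of 0%. These shares describe pooled values, and differences between the role groups were not tested.

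**Figure D1:**
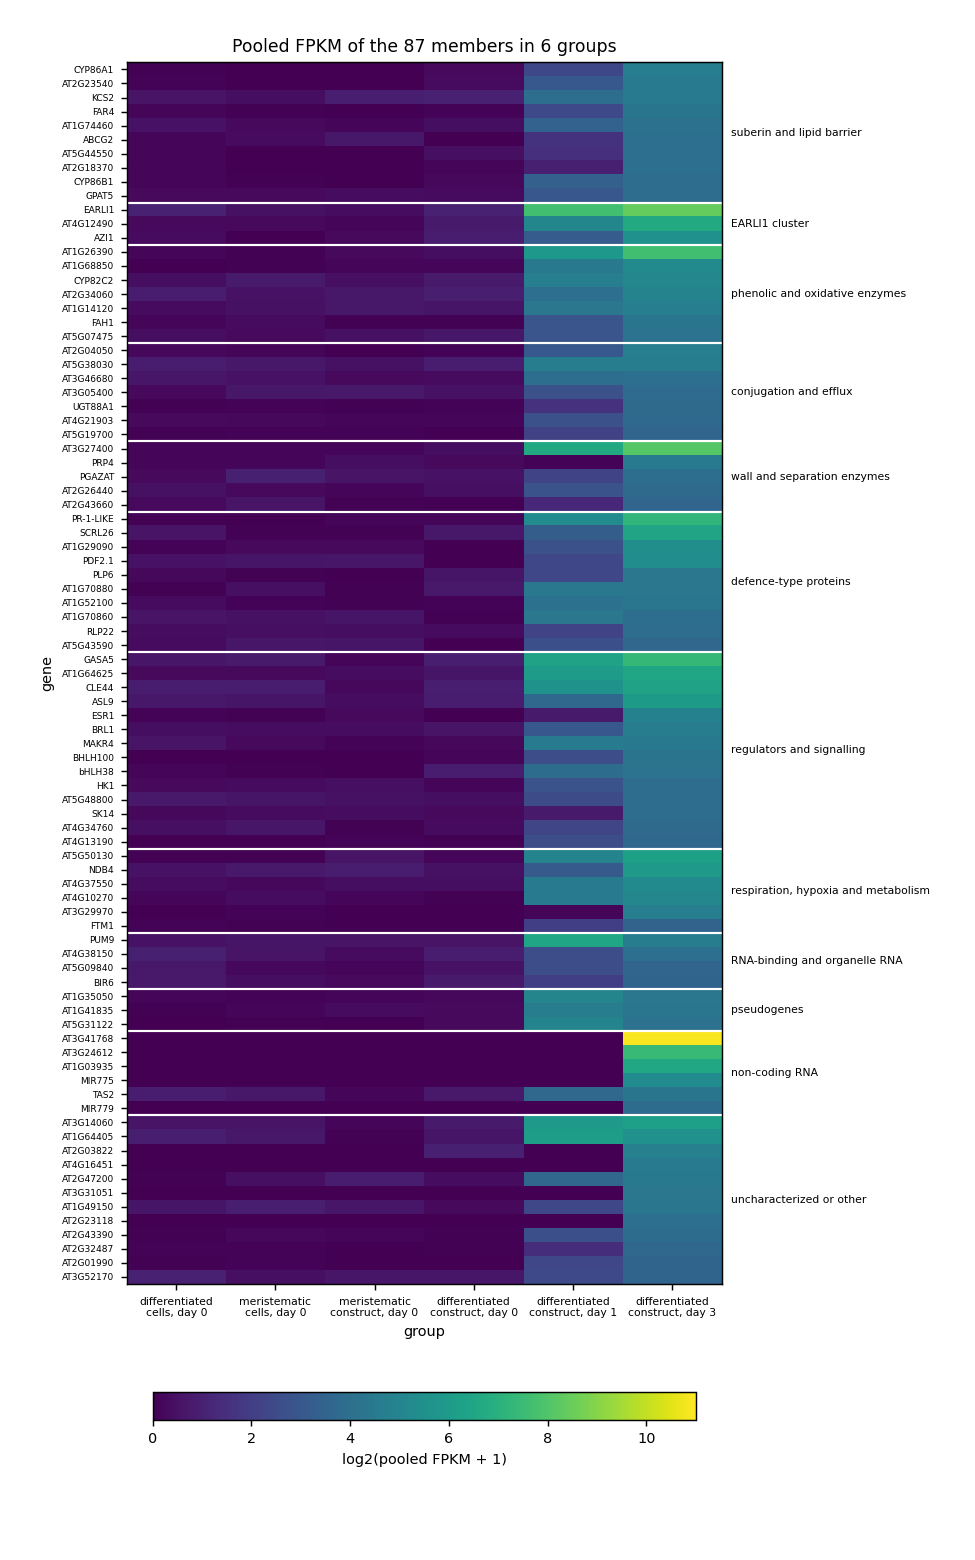
Each line is a member and each column a group; colour gives log2(pooled FPKM + 1), and white rules separate role groups. The 4 day 0 columns are dark by the choice of members, most members are lighter at day 1, and 8 members have a level only in the day 3 column.

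**Figure D2:**
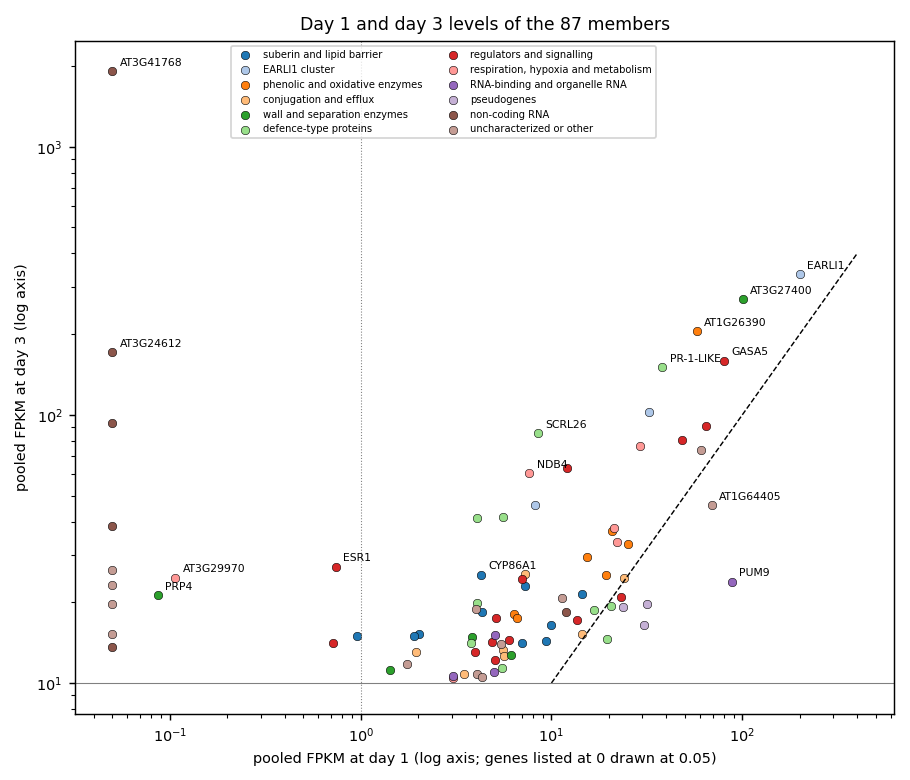
Pooled FPKM at day 1 (horizontal) is plotted against day 3 (vertical) on log axes, with members coloured by role, the dashed line at equality, the solid line at an FPKM of 10 and the dotted line at 1. The 8 members below the dashed line were higher at day 1, and the 9 at the left edge were listed at 0 at day 1.

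By the q-values of the authors' deposited table, with FPKM of at least 1 in a compared group, 46 members were higher at day 1 than in differentiated constructs at day 0 and 0 were lower. Over all genes tested, 16.2% were higher and 16.4% lower, but the low day 0 level of members was fixed by their choice, so nothing is read from the count. At day 3 against day 0, the authors' deposited table called 49 members higher and 0 lower, against 21% and 21.2% of all genes, in the contrast that chose them. Between day 1 and day 3 the authors' deposited table called 43 members higher (5.88% of all genes) and 1 lower (8.48% of all genes); here the day 3 level was fixed by the choice. Taking both steps, 23 members were called higher at each and 22 higher at day 1 and not called after. Another 20 were not called at day 1 and higher after, 21 were called at neither, and 1, PUM9, was higher and then lower. Shares of all genes with these patterns were not computed. Day 0 and day 3 levels were fixed by the choice, so nothing is read from these counts.

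Of 29 members with an FPKM under 0.1 in differentiated constructs at day 0, the authors' deposited table called 4 higher at day 3, against 45 of 58 members at 0.1 or more. Without the 8 members listed at 0 in all other groups, a choice made after seeing the data, the first count was 2 of 21 and the second did not change. The same split over all genes was not made. ABCG2, for example, was at 1.12e-05 at day 0 and 15.2 at day 3, and its q in the authors' deposited table was 0.382. Members at 0.1 or more could also go uncalled. In the authors' deposited table KCS2 (0.991 at day 0, 21.4 at day 3) had a q of 0.152 and SCRL26 (0.624, 85.5) of 0.228. A member not called is therefore not shown to be unchanged, and levels rather than q order the accounts below.

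EARLI1 (AT4G12480) was the highest coding member. Its FPKM was 0.989 in differentiated cells, 0.405 in meristematic cells, 0.271 in meristematic constructs and 0.989, 201.2 and 334.5 in differentiated constructs at days 0, 1 and 3. Its neighbour AT4G12490, of the same protein family, stood at 0.206, 0.209, 0.13 and 0.716 in those day 0 groups, then at 32.5 and 102.1. On the other side, AZI1 (AT4G12470) stood at 0.243, 0.0234, 0.229 and 0.775 at day 0, at 8.24 at day 1 and at 46.3 at day 3. All 3 were ordered alike, with day 3 above day 1 and day 1 above every day 0 group. AZI1 had reached 17.8% of its day 3 level by day 1, AT4G12490 31.8% and EARLI1 60.1%. From day 1 to day 3 the authors' deposited table called AZI1 (log2 ratio 2.49, q 0.000551) and AT4G12490 (1.65, q 0.00183) higher, but not EARLI1 (0.73, q 0.144).

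The next genes of that family on the chromosome stayed low or fell. AT4G12500 stood at 1.14 at day 1 and 1.47 at day 3. AT4G12520 stood at 200.4 in differentiated cells, 177.5 in meristematic cells, 51 in meristematic constructs and 73.2, 21.2 and 2.96 in differentiated constructs at days 0, 1 and 3. AT4G12510 went from 32.5 at day 0 to 6.55 and 2.92 in the same constructs, and the authors' deposited table called both lower at day 3 than at day 0. The genes are close relatives, and how reads were divided among them is not given; EARLI1 and AT4G12490 also overlap another annotated locus.

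**Figure D3:**
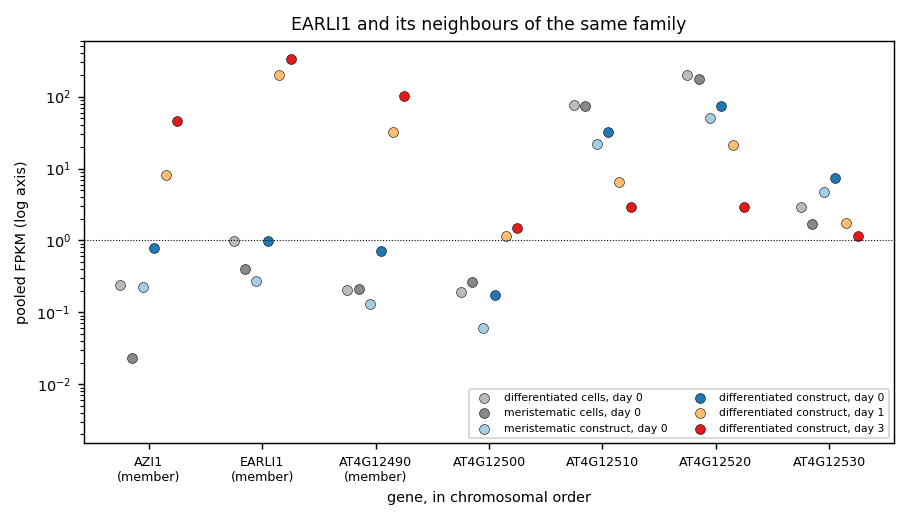
Pooled FPKM (log axis) of 7 neighbouring genes of the EARLI1 family, in chromosomal order, with 1 point per group and a dotted line at an FPKM of 1. The 3 members AZI1, EARLI1 and AT4G12490 are highest at day 3, whereas AT4G12510 and AT4G12520 are highest in isolated cells and lowest at day 3; groups listed at 0 are not drawn.

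Of the pathway lists, suberin held the most members. CYP86A1 (AT5G58860), the omega-hydroxylase of root suberin, was at 0.0532 in differentiated cells, 0.0116 in meristematic cells, 0.00783 in meristematic constructs and 0.21, 4.3 and 25.3 in differentiated constructs at days 0, 1 and 3. CYP86B1 (AT5G23190), which oxidizes very-long-chain acids, was at 0.151, 0.0337, 0.0156 and 0.181 in those day 0 groups, 9.37 at day 1 and 14.4 at day 3. GPAT5 (AT3G11430), which transfers acyl chains to glycerol, was at 0.227, 0.201, 0.287 and 0.26 at day 0, 6.97 at day 1 and 14.1 at day 3. Each of these 3 was higher at day 1 than in any day 0 group and higher again at day 3, with CYP86A1 at the smallest share of its day 3 level at day 1 (17% against 65.1% and 49.3%).

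FAR4 (AT3G44540), a reductase that makes the fatty alcohols of suberin, went from at most 0.114 at day 0 to 4.32 and 18.4. KCS2 (AT1G04220), which elongates acyl chains, was the member nearest the day 0 limit, at 0.991 in differentiated constructs, and then stood at 14.5 and 21.4. ABCG2 (AT2G37360), an exporter of suberin precursors, stood at 2.03 at day 1 and 15.2 at day 3. Another 4 members were placed beside them by annotated function or family only. They were the GDSL lipase genes AT2G23540 (7.23 at day 1, 23.1 at day 3) and AT1G74460 (9.9, 16.5), the lipid-transfer protein gene AT2G18370 (0.957, 15) and AT5G44550 (1.9, 15). The annotation of AT5G44550 gives only a family name, UPF0497, and no function. Of these 10 genes, only KCS2 was at 10 or more at day 1.

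A suberin list of 19 genes held 6 members. The authors' deposited table called 10 of the 19 higher at day 1 than at day 0 and 11 higher at day 3 than at day 0. From day 1 to day 3 it called 8 higher, and 0 were lower in each comparison. Over all genes tested, 16.2%, 21% and 5.88% were higher in these comparisons and 16.4%, 21.2% and 8.48% lower. The median log2 ratio of day 3 to day 0 (pseudocount 1) was 2.82 over the list and 0.03 over 18019 tested genes. Since 6 of the 19 were chosen for that change, the 13 others are given alone: their median was 1.93, and the authors' deposited table called 8 of them higher and 0 lower at day 3 than at day 0, against 21% and 21.2% of all genes tested. By the rule, list genes outside the set had a day 0 level of at least 1, a day 3 level below 10, or both. ASFT (AT5G41040), the feruloyl transferase of suberin, had been at 2.29 in differentiated constructs at day 0 and stood at 69.4 and 59.9 at days 1 and 3. ABCG20 and ABCG6, transporters akin to ABCG2, went from 1.33 and 1.88 at day 0 to 19.4 and 14.3 at day 3. KCS20, akin to KCS2, was at 23.6 at day 0 and 31.2 at day 3.

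Among MYB regulators of suberin on the list, MYB39 (SUBERMAN) stood at 0.689, 10 and 5.45 in differentiated constructs at days 0, 1 and 3. MYB93 stood at 0.556, 1.03 and 5.13, MYB107 at 0.111, 2.88 and 2.1, MYB41 at 0.47, 2.14 and 0.45 and MYB53 at 0.549, 0.23 and 0.0841. MYB9 stood at 2.38, 4.95 and 5.11 and MYB92 at 1.87, 4.58 and 5.99. The day 1 values of MYB39, MYB107 and MYB41 lay above those of day 3, but the authors' deposited table called none of these differences (q 0.106, 0.59 and 0.0957). Of the 7 MYB genes, the authors' deposited table called only MYB93 higher at day 3 than at day 1 (q 0.0197). Against day 0 it called MYB39 and MYB92 higher at days 1 and 3, MYB107 higher at day 1 and MYB93 higher at day 3. MYB9, MYB41 and MYB53 were called at neither day. Over all genes tested, 16.2% were higher at day 1 and 21% at day 3. While the suberin genes were higher, the authors' deposited table called 4 of 5 endodermis markers lower at day 3 than at day 0. Over all genes tested, 21.2% were lower. The other marker, SCR, stood at 12.1, 11.6 and 14.8 in differentiated constructs at days 0, 1 and 3. Its q at day 3 against day 0 in the authors' deposited table was 0.563. Every group carried pSCR:SCR-mCherry, so SCR reads may come from that transgene as well as from the native gene, and their shares were not tested. The part of the endodermis markers in the suberin result was not tested.

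**Figure D4:**
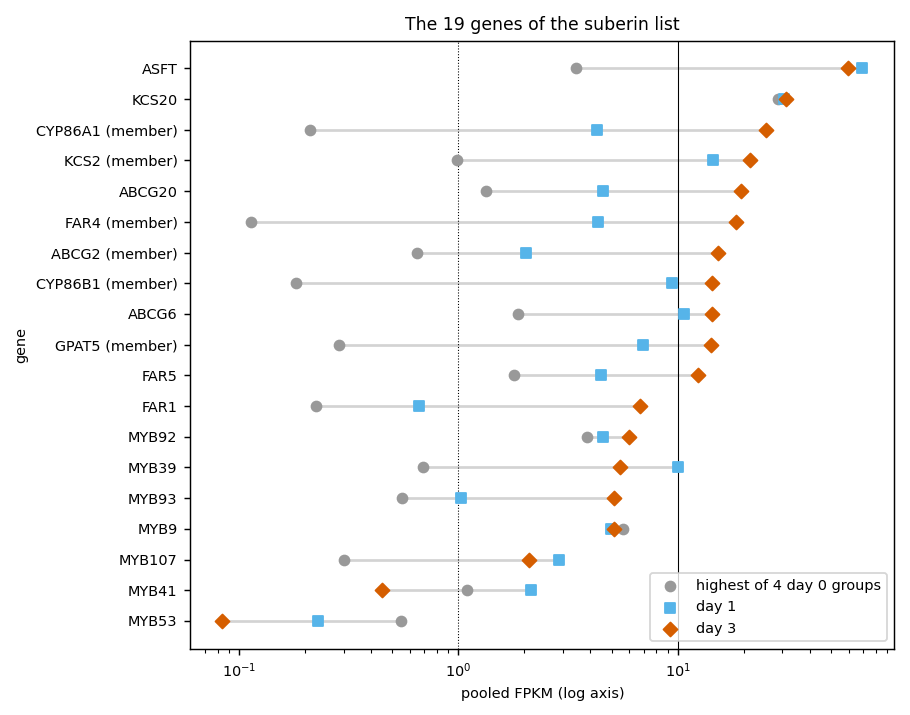
Pooled FPKM (log axis) of the 19 suberin list genes, showing the highest of the 4 day 0 groups, day 1 and day 3; the dotted and solid lines mark the FPKM limits of 1 and 10. The 6 members run from below 1 at day 0 to between 14.1 and 25.3 at day 3, and KCS20 keeps nearly the same level.

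Enzymes of phenolic and oxidative chemistry had, at 52.2%, the highest median share of the day 3 level at day 1 among the role groups of coding genes. AT1G26390, a berberine-bridge-type oxidase, stood at 0.104, 0.0395, 0.231 and 0.346 in differentiated cells, meristematic cells, meristematic constructs and differentiated constructs at day 0, at 57.9 at day 1 and at 205.2 at day 3. Its day 1 level was above every day 0 group, and in the authors' deposited table the log2 ratio of day 3 to day 1 was 1.82 (q 0.00256). Neighbouring genes of the same family were not silent at day 0 or stayed below 10 at day 3: AT1G26380 was at 22.5, 462.7 and 287.6 in differentiated constructs at days 0, 1 and 3, AT1G26420 at 1.69, 30.3 and 33.1, and AT1G26410 at 0, 2.8 and 6.8.

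CYP82C2 (AT4G31970), a P450 of indole-type defence metabolism, was at no more than 0.726 at day 0, at 25.2 at day 1 and at 33.1 at day 3. It was the 1 member on a list of 8 camalexin and indole defence genes. At day 3 against day 0, the authors' deposited table called 6 higher and 0 lower, of 7 at an FPKM of 1 or more. Over all genes tested, 21% were higher and 21.2% lower. The peroxidase genes AT1G68850 and AT2G34060 stood at 20.9 and 15.4 at day 1 and at 37 and 29.4 at day 3. The oxygenase gene AT1G14120 stood at 19.4 and 25.3, FAH1 (ferulate 5-hydroxylase, of syringyl lignin and sinapate synthesis) at 6.36 and 18.1, and the cupredoxin gene AT5G07475 at 6.56 and 17.5. All 7 were at least at 28.2% of their day 3 level at day 1.

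Efflux and conjugation genes followed. The MATE family exports small organic compounds and ions, and 4 of its genes were members: AT2G04050 (7.23 at day 1, 25.5 at day 3), AT5G38030 (24, 24.7), AT4G21903 (5.65, 12.7) and AT5G19700 (3.47, 10.9). Of 55 MATE genes in the table, 22 were silent at day 0, and the authors' deposited table called 10 of the 36 at an FPKM of 1 or more in a compared group higher at day 3 than at day 0, against 21% of all genes. DTX1, a MATE gene close to AT2G04050 on the chromosome, was already at 14.1 at day 0 and reached 33.9 and 46.9. AT5G38030 and the glycosyltransferase gene AT3G46680 (14.5, 15.2) were almost at their day 3 level by day 1, whereas the glycosyltransferase gene UGT88A1 (1.95, 13.1) stood at 15% of it.

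The wall enzyme gene AT3G27400, of the pectin lyase-like family, was the second highest coding member. It stood at 0.115 in differentiated cells, 0.101 in meristematic cells, 0.111 in meristematic constructs and 0.341, 100.7 and 270.5 in differentiated constructs at days 0, 1 and 3, with no day 0 group near the later levels. PGAZAT (AT2G41850), the polygalacturonase ADPG2 of organ separation, stood at 3.84 and 14.8 at days 1 and 3. PRP4 (AT4G38770), a proline-rich wall protein, differed from these: it was at 0.153, 0.157, 0.335 and 0.2 in the day 0 groups, 0.0867 at day 1 and 21.2 at day 3. It was thus below 1 in all groups but day 3, with day 1 at 0.408% of day 3, and in the authors' deposited table its step from day 1 to day 3 had a log2 ratio of 7.94 and q of 0.0578. The carbohydrate-binding protein gene AT2G43660 (1.42, 11.2) and AT2G26440 (6.12, 12.8) completed the group. AT2G26440 is annotated only to the plant invertase and pectin methylesterase inhibitor superfamily, which does not say whether it encodes an enzyme or an inhibitor.

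Proteins of the defence type by annotation included 4 members above 40 at day 3. PR-1-LIKE (AT2G19990), akin to pathogenesis-related protein 1, was at 0.0335, 0.0206, 0.1 and 0.11 in the day 0 groups, 38.2 at day 1 and 150.6 at day 3. SCRL26 (AT4G22105), a small cysteine-rich protein, was at 0.488, 0.0582, 0.0581 and 0.624, then at 8.47 and 85.5. PDF2.1 (AT2G02120), a plant defensin, was at 0.431, 0.531, 0.582 and 0, then at 4.07 and 41.4. These 3 were called higher at day 3 than at day 1 in the authors' deposited table, with log2 ratios of 1.98, 3.34 and 3.34. SCRL26 and PDF2.1 had reached 9.91% and 9.84% of the day 3 level at day 1. Also in this group, the cysteine proteinase gene AT1G29090 stood at 5.61 and 41.6 and PLP6, a patatin-like lipase, at 4.07 and 19.8. On a list of 14 salicylic acid defence genes, the authors' deposited table called 0 higher and 5 lower at day 3 than at day 0, of 9 at an FPKM of 1 or more. On a list of 10 jasmonate and ethylene defence genes it called 2 higher and 0 lower, of 3. Over all genes tested, 21% were higher and 21.2% lower. Neither list held a member, and their genes PR1 and PDF1.2a were listed at 0 at days 1 and 3.

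A pair of genes of the polyketide cyclase and major latex protein family, AT1G70860 and AT1G70880, lie with 1 gene between them. They stood at 19.6 and 20.5 at day 1 and at 14.6 and 19.4 at day 3, both higher at day 1, although the authors' deposited table called neither difference (log2 ratios -0.42 and -0.08, q 0.513 and 0.906). The gene between them, AT1G70870, was listed at 0 in all 6 groups, and MLP34 nearby was at 143.4 at day 0 already.

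Regulators included peptides, receptors and transcription factors. GASA5 (AT3G02885), a gibberellin-responsive peptide, was at 0.602, 0.711, 0.147 and 0.889 in the day 0 groups, 80.1 at day 1 and 159.5 at day 3. CLE44 (AT4G13195), which encodes the TDIF peptide that restrains xylem formation, was at 0.815, 0.803, 0.193 and 0.896, then at 48.4 and 80.3. The kinase gene AT4G13190 (5.05, 12.2), its neighbour on the same strand, overlaps it, and reads of the pair cannot be told apart with certainty. AT1G64625, annotated as a WNK kinase-type protein, stood at 64.2 and 90.8. In these genes every day 0 value was below the day 1 level.

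ESR1 (AT1G12980), also called DORNROSCHEN, a transcription factor that promotes shoot regeneration, was late. It was at 0.0822 in differentiated cells, 0.0467 in meristematic cells, 0.218 in meristematic constructs and 0.00851, 0.74 and 27.1 in differentiated constructs at days 0, 1 and 3. It was thus below 1 at day 1, at 2.73% of day 3, and the authors' deposited table gave the step from day 1 a log2 ratio of 5.20 (q 0.000551). On a list of 23 regeneration genes it was the 1 member, and the authors' deposited table called 4 of the 23 higher and 5 lower at day 3 than at day 0, of 18 at an FPKM of 1 or more, against 21% and 21.2% of all genes. Of the others, WOX11, a regulator of root founder cells, went from 1.59 to 8.4 and 32.4, while WOX5 of the root stem cell niche went from 21.2 to 6.59 and 2.26, and ESR2 was listed at 0 in every group.

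ASL9 (AT1G16530), an LBD-family gene that responds to cytokinin, stood at 12.1 at day 1 and 63.2 at day 3, and BRL1 (AT1G55610), a brassinosteroid receptor, at 6.98 and 24.5. HK1 (AT2G17820), a histidine kinase of osmotic sensing, stood at 6.03 and 14.4 and the SAUR-type gene AT4G34760 at 3.97 and 13.1. MAKR4 (AT2G39370), a membrane-associated kinase regulator of lateral root spacing, was at 23 at day 1 and 20.9 at day 3. SK14, a subunit of ubiquitin ligases, was at 0.718 and 14.1. The set thus held both regulators near their day 3 level at day 1, such as MAKR4, and regulators below 1 then, ESR1 and SK14.

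The iron-deficiency regulators bHLH38 and BHLH100 belong to a small group of bHLH factors that pair with FIT. bHLH38 (AT3G56970) was at 0.118, 0.058, 0.00621 and 0.799 in the day 0 groups and at 13.7 and 17.2 at days 1 and 3. BHLH100 (AT2G41240) was at 0.027, 0, 0 and 0.124, then at 5.15 and 17.5. Both were above 5 at day 1, while the rule fixed their day 0 levels below 1. On the iron list of 18 genes, the authors' deposited table called 4 higher and 3 lower at day 3 than at day 0, of 12 at an FPKM of 1 or more, against 21% and 21.2% of all genes. The neighbour bHLH39 was at 5.52, 36.1 and 47.6 in differentiated constructs at days 0, 1 and 3, the iron-signalling peptide gene IMA1 at 0.437, 11.6 and 44.3, FIT at 20.2, 4.46 and 1.7, and the iron transporter gene IRT1 at 1.58, 0.674 and 0.852. IMA1 missed membership through an FPKM of 1.07 in meristematic constructs.

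Genes of respiration, low oxygen and metabolism were few. NDB4 (AT2G20800), an external NAD(P)H dehydrogenase of the mitochondrion, was at 0.438, 0.697, 0.822 and 0.394 in the day 0 groups, 7.67 at day 1 and 60.5 at day 3. AT5G50130, of the NAD(P)-binding Rossmann family, went to 29.1 and 76.2 and the formamidase-type gene AT4G37550 to 21.4 and 37.9. The wound-responsive gene AT4G10270 stood at 22.1 and 33.4. The B12D-family gene AT3G29970 was above 0 at day 0 only in meristematic cells (0.0738), and stood at 0.107 at day 1 and 24.7 at day 3. FTM1 (AT1G43800), of the stearoyl desaturase family, was the member nearest the day 3 limit, at 10.4.

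PUM9 (AT1G35730), an RNA-binding Pumilio protein, had the highest ratio of day 1 to day 3. It was at 0.453, 0.541, 0.505 and 0.5 in the day 0 groups, 88.5 at day 1 and 23.9 at day 3, that is 370% of day 3 at day 1. It was the 1 member lower at day 3 than at day 1 in the authors' deposited table (log2 ratio -1.89, q 0.00509). The pseudogene AT1G35735 beside it was at 0.0451, 23.5 and 8.85 in differentiated constructs at days 0, 1 and 3. PUM9 overlaps ANNAT1, an annexin gene on the other strand, which stood at 501.2, 305.2 and 267.4, and no source used here says whether counting used the strand. The RNA-processing genes BIR6 and AT4G38150, both of pentatricopeptide repeat proteins that act on organelle RNA, stood at 3.06 and 5.08 at day 1 and 10.6 and 15.1 at day 3.

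All 3 pseudogenes in the set were higher at day 1 than at day 3. AT1G35050 stood at 31.6 and 19.7, AT1G41835 at 23.8 and 19.2 and AT5G31122 at 30.5 and 16.4. None of these differences was called in the authors' deposited table (q 0.246, 0.652 and 0.114). The other members higher at day 1 were AT1G64405, an uncharacterized gene at 69.5 and 45.9, AT1G70860, AT1G70880, MAKR4 and PUM9. Another uncharacterized gene, AT3G14060, stood at 60.7 and 73.8.

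In 8 members the pooled table listed 0 in all groups but day 3. They were the 18S ribosomal RNA locus AT3G41768 (1912 at day 3), the small nucleolar RNA genes AT3G24612 (171.3) and AT1G03935 (93.5), the miRNA precursor genes MIR775 (38.6) and MIR779 (13.7), and AT4G16451 (23.2), AT3G31051 (19.7) and AT2G23118 (15.2). Transcripts of 6 of these 8 are shorter than 200 bases in RefSeq, against 7 of all 87 members and 6.79% of the genes silent at day 0. Each of the other groups also held genes at 10 or more that were at 0 in the remaining 5, from 1 in differentiated constructs at day 0 to 7 in meristematic cells. The libraries were selected for poly(A) tails, which these RNA classes mostly lack in mature form, and the part of that step was not tested. TAS2, a precursor of trans-acting siRNAs and the 1 other non-coding member, differed: it was at 0.773, 0.628, 0.119 and 0.706 at day 0, 11.9 at day 1 and 18.5 at day 3.

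For the 18S locus the pooled zeros at day 0 stood beside high values in the construct libraries and in 1 library of isolated cells. Library lines are displaced by up to 64 lines, so the highest value within 70 lines of the locus was read in each library. It was above 1000 in 7 of 12 day 0 libraries, all 6 of constructs and 1 of 6 of isolated cells, although no other locus in that window had a pooled day 0 FPKM above 647. In the other isolated-cell libraries it ran from 101.9 to 537.5, below that level. In differentiated constructs at day 0 the values were 2484, 3413 and 1971. At day 3 they were 2132 and 551. The listed zeros of AT3G41768 in constructs thus stand beside high library values near its line. The window does not show which gene a value belongs to, and whether the zeros are failed estimates was not tested. The same reading could not be made for the other 7, whose levels do not stand above their neighbours.

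**Figure D5:**
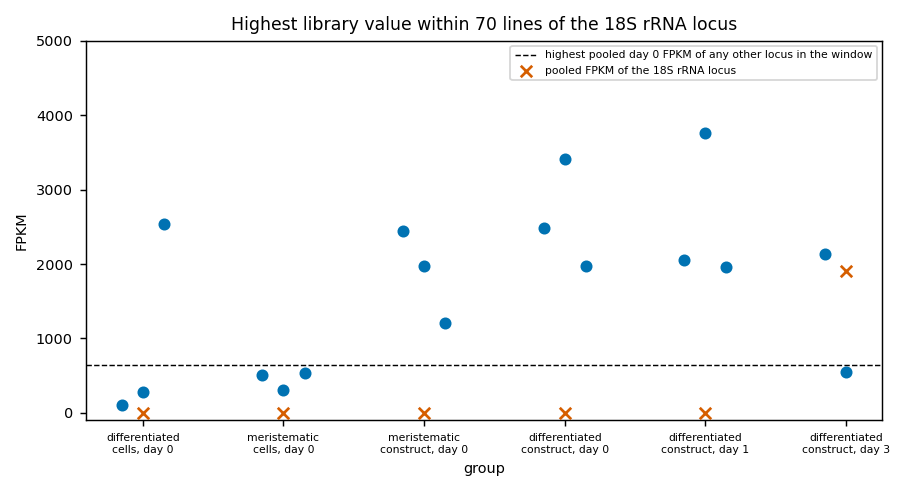
Each point is 1 library, giving the highest FPKM within 70 lines of the 18S rRNA locus; crosses are the pooled FPKM of that locus, and the dashed line is the highest pooled day 0 FPKM of any other locus there (647). All 6 day 0 construct libraries lie above the dashed line while the pooled value is 0, and the pooled cross is high only at day 3.

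Set beside the coding genes silent at day 0, the 77 coding members held more enzymes of lipids (7, or 9.09%, against 1.64%), transporters (5, or 6.49%, against 2.55%) and cytochrome P450 genes (3, or 3.9%, against 1.46%). The annotation words for F-box and ubiquitin proteins matched 0 members, against 7.85% of the silent genes, although SK14 is a ubiquitin ligase subunit. Shares by such words were also lower for pathogenesis and defence proteins (2.6% against 4.75%) and transcription factors (2.6% against 4.72%). Those words missed the transcription factor ESR1 and the defensin PDF2.1, so the lower shares do not show fewer such genes among members. Genes annotated as uncharacterized were at 13% against 18.5%. All of these family shares rest on annotation words. Chromosome 2 carried 25 of the 87 members (28.7%) and 16.6% of all single IDs, and chromosome 5 carried 11 (12.6%) and 22.6%. These shares are descriptions.

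The 77 promoters of coding members were searched on both strands for 15 short motifs. The MYB element ACCAAC occurred in 12 (15.6%) against 11.4% of all 26167 promoters, and the W-box TTGACC in 13 (16.9%) against 12.2%, while the W-box form TTGACT was at 19.5% against 19.2%. TATAAA was at 48.1% against 47.9% and AATATCT, only a part of the evening element, at 14.3% against 10.1%. The site II element TGGGCC was at 5.19% against 13.8%. The G-box CACGTG was at 5.19% against 6.53%, the TGA motif TGACG at 18.2% against 18.5%, the DRE CCGAC at 10.4% against 11.9%, the GCC-box GCCGCC at 1.3% against 1.84% and the MYB form AACTAAC at 3.9% against 4.94%. The ABRE forms ACGTGTC and ACGTGGC were at 5.19% and 0% against 3.74% and 3.38%, GAANNTTC of heat shock factors at 6.49% against 9.41% and the P1BS-like GNATATNC at 5.19% against 5.43%. Neighbouring motifs can share bases (an ABRE with a G-box, for example). In the promoters printed above, ACCAAC, as GTTGGT, was found 17 and 7 bases before the start in AZI1 and EARLI1 and not in the 3 suberin windows, TTGACC was found only in CYP86B1, and AATATCT, not capitalized, in AZI1 and EARLI1.

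Genes close to the limits show how the set was drawn. Just inside the day 3 limit of 10 were FTM1 (10.4), AT3G52170 (10.5) and BIR6 (10.6), and just outside it MYB56 (9.87), AT2G31425 (9.85) and WOX14 (9.81). Just inside the day 0 limit of 1 were KCS2 (0.991), EARLI1 (0.989) and AT3G52170 (0.987), and just outside it AT1G56150 (1.01), IDD2 (1.03) and AT1G79520 (1.03). Among the 75 members above 0 in both differentiated day 0 groups, 43 (57.3%) were higher in constructs than in isolated cells, against 46.5% of 4207 silent genes; at these levels below 1 no order is read from single genes.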

How the data were processed

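RNA was measured in 17 libraries of 6 groups. Per the labels' protocols, RNA was extracted with TRIzol, selected for poly(A) tails, made into directional libraries and sequenced as paired-end reads. HISAT2 and Cufflinks were used, per the submitters' processing notes; versions, settings, strand use and build are not given in these sources. One deposited table holds FPKM, made by the authors, for each library. Another gives a pooled FPKM for each group, with log2 ratios and q-values deposited for 7 comparisons. No source used here says how the q-values were made.

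The planned limma fit on single libraries was not run, because lines of that table do not hold the same gene in every column. Line by line, a library correlated with its own pooled column at 0.193 to 0.346, whereas no correlation between 2 pooled columns was below 0.844. Among 20 measured displacements the median was 25.5 lines and the largest 64, so library values were read only as the highest value within 70 lines of the 18S rRNA locus. The pooled table therefore gives the values here, with no SD. FPKM keeps no read totals, so depth is unknown. A gene was called where the authors' q was under 0.05 and the pooled FPKM was at least 1 in a compared group. Where a compared group was listed at 0, no ratio was used, but the call was kept.

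Of 32654 single IDs, 32218 matched RefSeq TAIR10.1, which gave names, gene types and sequence. Promoter windows held the 250 bases before each annotated start; the motif search was checked on random sequences with planted motifs, which is no test of the motif shares. Calculations used Python 3.11.15, pandas 2.3.3 and NumPy 2.4.6. Median day 1 to day 3 ratios used a pseudocount of 1.

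The members, gene lists and cell type markers were chosen with earlier results of these data known, and the 12 role groups after the members' values were seen. The genes named were the 25 members highest at day 3, the 8 highest and 8 lowest in day 1 to day 3 ratio, transcription factors, members of the gene lists, adjacent members, leaders of annotated families and genes nearest each limit. Others are named to complete a role group or a gene cluster, and were chosen after their values were seen. Alternatives were other FPKM limits, other scalings, a stricter q, other pseudocounts and leaving out members listed at 0 elsewhere.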

Additional observations from a re-analysis of the deposited data

How the results depend on the processing

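The size of the set depended on its limits: 48 genes met a day 0 ceiling of 0.5 and 153 a ceiling of 2, and 201 met a day 3 minimum of 5 and 41 a minimum of 20. With q under 0.01, the count higher at day 3 than at day 1 was 25 in place of 43. Other counts stayed within 1.5 times: the set held 123 genes with TPM scaling (each group rescaled to the same sum) (84 of the 87 kept), 89 with median-ratio factors (85 kept) and 103 when only the differentiated groups had to be silent. Members at an FPKM of 1 or more at day 1 were 73 to 74 under these scalings. The median log2 ratio of day 1 to day 3 was -1.52 with a pseudocount of 0.1, -0.96 with 5 and -1.29 without the 8 members listed at 0 elsewhere, a choice made after seeing the data.

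No paired analysis was possible because a line of the library table does not hold the same gene in every column, so no result comes from a fit to libraries; leaving out each replicate was not run for the same reason. Day 3 rests on 2 libraries, pooled by the authors. Read depth is unknown, so how much of a level near 0 is counting noise cannot be given.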

Other observations

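Beside the members, 10 genes were silent at day 0, at 10 or more at day 1 and below 10 at day 3, among them MYB39 (10 and 5.45) and the pseudogene AT1G35735 next to PUM9 (23.5 and 8.85). Some lists with no member fell in the same constructs. Of 13 genes of abscisic acid and dehydration, the authors' deposited table called 10 lower and 0 higher at day 3 than at day 0, and of 12 of xylem and secondary wall 9 lower and 0 higher, against 21.2% of all genes tested lower and 21% higher. On a list of 12 cutin genes, the polyester of shoot surfaces, the authors' deposited table called 3 higher and 0 lower, of 6 at an FPKM of 1 or more.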
